A study of Homo sapiens with 12 samples.

Results

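The knockdown of ARD1 in Huh-7, a human hepatoma cell line, was examined in 6 of the 12 RNA-seq libraries of a study of liver cancer cells. The members are the 6 libraries of the Huh-7 count table, 3 from cells transfected with an siRNA against ARD1 (siARD1 1 to 3) and 3 from cells transfected with a negative-control siRNA (control 1 to 3). All 6 libraries therefore come from transfected cells. The siRNA sequences, dose and time after transfection are absent from the labels read here, as is whether the libraries of a group came from separate cultures, so each p-value measures only the spread between libraries, which may be technical. The other 6 libraries, labelled Hep-3B, were used only for the comparison between lines.

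The gene for ARD1 is now called NAA10. Its product is the enzyme of NatA, a complex at the ribosome that adds acetyl groups to the first residue of many new proteins. Huh-7 cells are known for keeping part of the hepatocyte programme: they make and secrete plasma proteins under liver transcription factors such as HNF4A and FOXA2. Several stress and growth pathways act through factors that bind short DNA elements near gene starts. YAP and TAZ act with TEAD factors, ATF4 pairs with C/EBP factors in the amino acid response, NRF2 pairs with small MAF proteins in the antioxidant response, and MTF1 answers zinc.

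Promoters are shown for 5 genes that stood higher after siARD1, chosen because their lists rose together and because the element tied to each list was found there. They come from RefSeq (GRCh38.p14), and each line gives the 250 bases before the start site, 5′ to 3′ on the gene's strand. Capitals mark matches, on either strand, to GGAATG (TEAD) in CCN2 (chr6:131951373-131951622, minus strand) and ANKRD1 (chr10:90921088-90921337, minus strand), to TGCNCNC (metal response element) in MT2A (chr16:56608334-56608583, plus strand) and MT1X (chr16:56682220-56682469, plus strand), and to TGATGNAA (ATF) in CHAC1 (chr15:40953221-40953470, plus strand).
CCN2: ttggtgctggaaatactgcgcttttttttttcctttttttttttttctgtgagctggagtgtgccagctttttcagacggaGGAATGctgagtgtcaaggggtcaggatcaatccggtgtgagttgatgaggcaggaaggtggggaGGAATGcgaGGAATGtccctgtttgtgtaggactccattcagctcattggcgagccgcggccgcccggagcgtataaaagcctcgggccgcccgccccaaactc
ANKRD1: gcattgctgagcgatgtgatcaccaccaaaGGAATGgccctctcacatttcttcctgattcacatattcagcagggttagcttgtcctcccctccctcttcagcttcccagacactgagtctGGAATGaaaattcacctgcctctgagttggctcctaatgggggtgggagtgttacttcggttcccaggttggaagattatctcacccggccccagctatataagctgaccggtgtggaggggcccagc
MT2A: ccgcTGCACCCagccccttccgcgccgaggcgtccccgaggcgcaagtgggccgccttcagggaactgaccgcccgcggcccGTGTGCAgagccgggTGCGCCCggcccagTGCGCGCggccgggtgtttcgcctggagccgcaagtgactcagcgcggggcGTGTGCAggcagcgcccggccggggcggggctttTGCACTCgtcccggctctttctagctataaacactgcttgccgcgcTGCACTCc
MT1X: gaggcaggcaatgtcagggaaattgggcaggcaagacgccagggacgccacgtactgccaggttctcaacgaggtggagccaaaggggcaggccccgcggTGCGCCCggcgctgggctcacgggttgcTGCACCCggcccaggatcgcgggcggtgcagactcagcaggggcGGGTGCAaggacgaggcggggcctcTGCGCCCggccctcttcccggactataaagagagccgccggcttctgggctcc
CHAC1: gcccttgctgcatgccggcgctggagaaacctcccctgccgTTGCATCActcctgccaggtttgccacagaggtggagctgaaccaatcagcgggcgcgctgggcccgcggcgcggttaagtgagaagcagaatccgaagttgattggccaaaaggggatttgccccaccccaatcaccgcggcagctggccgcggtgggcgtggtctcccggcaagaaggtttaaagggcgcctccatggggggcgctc

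The CCN2 promoter held 3 TEAD matches, starting 169, 104 and 95 bases before the start site, and the ANKRD1 promoter held 2, starting 220 and 128 bases before it. Of all 35116 RefSeq promoter windows (250 bases before to 50 after a start), 14% held at least 1 match to GGAATG, 1.37% at least 2 and 0.128% at least 3. Among YAP target genes higher after siARD1, 7 of the 10 with a window held 1, against 16.7% of all genes. For TGATGNAA the same count was 8 of 22 ATF4 targets against 4.46% of genes. For the antioxidant element TGACNNNGC it was 4 of 15 NRF2 targets against 16.1%. The metal element is short and common, found in 59.4% of genes, and both metallothionein genes with a window held it, MT2A with 7 matches and MT1X with 4 in the bases shown. The lists were chosen with earlier results known, so these shares do not test a factor.

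The targeted gene checks the labels. NAA10 (ENSG00000102030, GRCh38 chromosome X, 153929242 to 153935223, minus strand) stood at 165, 156 and 200.2 CPM in the control libraries and 13.2, 9.86 and 9.99 CPM after siARD1. The groups did not overlap, and the lowest control stood far above the highest siARD1 library. The log2 fold change was -3.98 (SE 0.13, edgeR adjusted p = 1.66e-08), and 6.34% of the control level remained (95% interval 5.30 to 7.58). An exact two-sided permutation test over 3 against 3 libraries gave p = 0.1, the smallest it can give, and this holds for every single-gene permutation test in this design. ARHGAP4, a RhoGAP gene, overlaps NAA10 on the same strand and stood at 1.01, 1.36 and 0.614 CPM in the control libraries and 0.568, 0.882 and 1.05 CPM after siARD1. Its groups overlapped (log2 fold change -0.26, edgeR adjusted p = 0.616). RENBP, the next gene along the chromosome, had 27 counts over the 6 libraries and was not tested.

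Total counts per library were 17327615 to 22674749 in the controls and 19167607 to 19764412 after siARD1. The first principal component of log2 CPM (counts scaled to library size with TMM factors) held 59.2% of the variance and separated the groups, and the second (13.4%) set siARD1 3 apart from the other libraries. Markers of hepatoma cells were present in every library, with all 10 of 10 detected and a summed level of 30707 to 31659 CPM in the controls and 25692 to 29258 CPM after siARD1. The summed fibroblast markers (7 of 8 in the table) were 47.8 to 54.6 CPM in the controls and 35.0 to 38.0 CPM after siARD1, with DCN at 10 counts or fewer over all 6 libraries. Endothelial markers (5 of 6) summed to 13.1 to 14.5 and 11.3 to 13.3 CPM, with KDR and VWF at 10 counts or fewer. Keratinocyte markers (4 of 6, KRT1 at 10 counts or fewer) were at 13.6 to 14.4 and 13.1 to 14.8 CPM, and leukocyte markers (6 of 7, CD68 at 10 counts or fewer) at 94.9 to 99.8 and 97.2 to 116 CPM.

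Changes were many and mostly small. Values in brackets after a gene are log2 fold changes of siARD1 over control, with their standard error (SE) where given. Of 15919 tested genes, 6388 (40.1%) passed edgeR's quasi-likelihood test at an adjusted p under 0.05, 3379 higher (21.2%) and 3009 lower (18.9%) after siARD1. Of the changed genes 52.9% were higher, and 39.7% were with upper-quartile scaling (2557 higher, 3887 lower), which moved the median log2 fold change of all genes from -0.0076 to -0.071. The median absolute log2 fold change was 0.23. At 2-fold or more the balance leaned the other way, with 185 genes higher (1.16%) and 498 lower (3.13%). Without siARD1 3, the library set apart on the second component, the counts were 212 and 574.

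The large falls lay mostly among genes of low level. Of the 498 genes at least 2-fold lower, 438 (88.0%) had a mean under 10 CPM, while 38.5% of tested genes did. Rises of that size also lay at low level more often than tested genes did, though less so than falls. Of these rises 109 (58.9%) were under 10 CPM and 76 at or above it, against 60 falls at or above it. Genes under 10 CPM had a median log2 fold change of -0.17, and genes at 10 CPM or more one of 0.05. Levels in CPM also grow with gene length. On a scale per kilobase of exon, the 3547 genes under 1 CPM per kilobase held 298 falls and 73 rises of at least 2-fold, and the 4162 genes at 10 to 100 held 15 falls and 28 rises. Binned on the controls alone, the 4560 genes at 1 to 10 CPM held 333 falls and 70 rises, and the 1567 under 1 CPM held 84 and 63. With these bins falls outnumbered rises above 10 CPM as well. The 7586 genes at 10 to 100 CPM held 71 falls and 44 rises, and the 2138 at 100 to 1000 CPM held 10 and 8. The balance above 10 CPM, and how far rises lie at low level, therefore rest on the choice of bins.

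**Figure D1:**
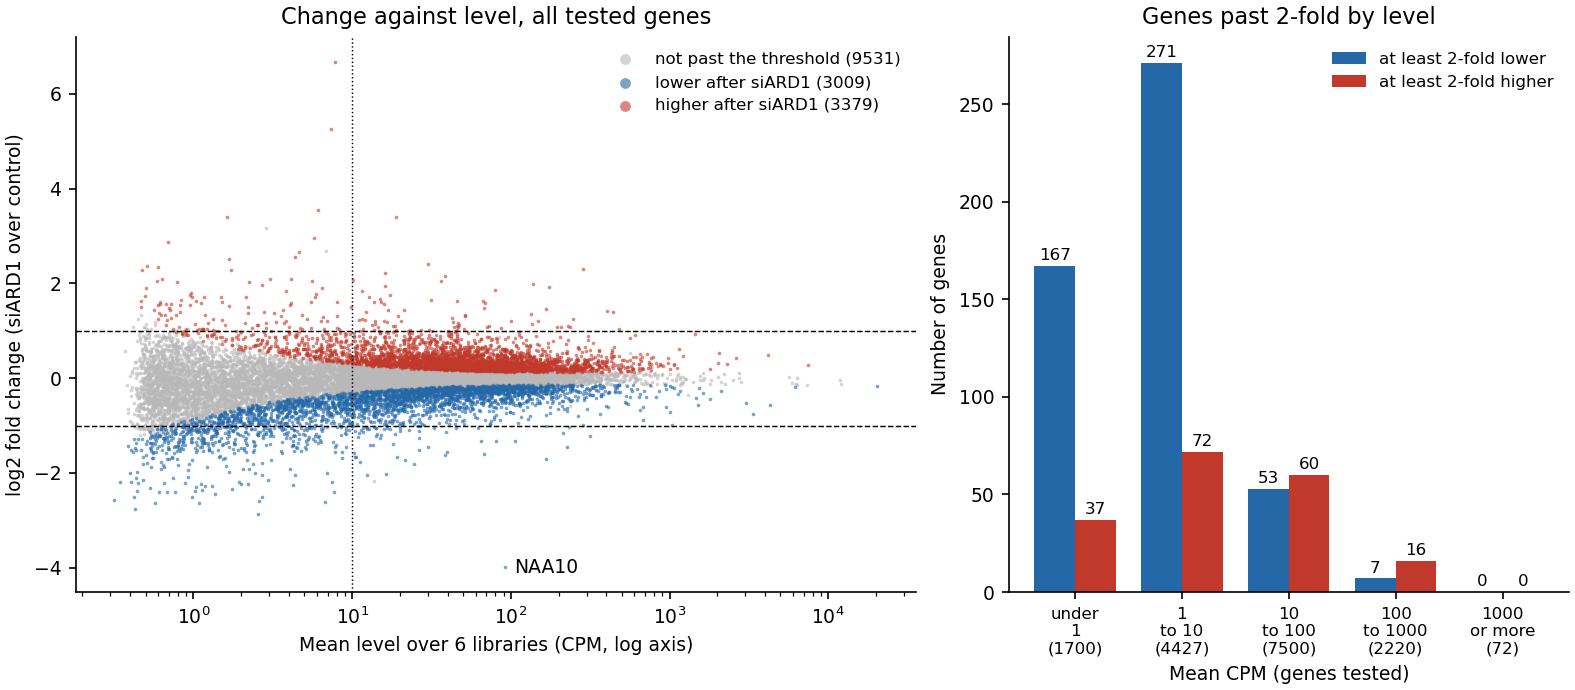
Left: log2 fold change (siARD1 over control) against the mean level over 6 libraries in CPM on a log axis, 1 point per tested gene, with dashed lines at 2-fold and a dotted line at 10 CPM. Right: genes past 2-fold and the test in each band of the mean level over 6 libraries. In these bands falls outnumber rises below 10 CPM (167 against 37 and 271 against 72) and not above it (53 against 60 and 7 against 16). With bands of control level falls outnumber rises at 10 to 100 CPM too (71 against 44).

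The share of all counts in these low-level genes moved the same way in each library. Tested genes at 1 to 10 CPM held 1.91, 1.81 and 1.82% of counts in the controls and 1.66, 1.71 and 1.61% after siARD1. Tested genes under 1 CPM held 0.134, 0.125 and 0.125% against 0.105, 0.113 and 0.103%. Rows with too few counts to be tested also held less, 0.128 to 0.140% in the controls and 0.109 to 0.123% after siARD1. The groups did not overlap in these 3 shares. The part that this shift, shared by tested and untested rows, has in the number of falls was not tested. At the other end, the 72 genes above 1000 CPM held 20.3, 20.7 and 20.3% of counts in the controls and 19.0, 18.7 and 19.8% after siARD1. Of these 72 genes 18 fell (25%) and 14 rose (19.4%), shares near the 18.9% and 21.2% of all genes. The transferrin gene TF went down from 4211 ± 177 to 2502 ± 318 CPM (-0.75, SE 0.07, edgeR adjusted p = 2.50e-07; means with SD over 3 libraries, here and below), while KRT8, a keratin of simple epithelia, rose from 999 ± 42.8 to 1895 ± 140.4 CPM (0.92).

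The 498 genes at least 2-fold lower are described here without further test, since the same fit chose them. By GENCODE type, 335 were protein-coding (67.3%, against 83.3% of tested genes), 61 antisense RNAs, 51 lincRNAs, 19 of other types and 32 not listed in GENCODE v29. The siARD1 libraries all lay below the controls in 483 of them, against 3799 of all tested genes (23.9%). Counting both directions, the groups did not overlap in 7959 of the 15919 tested genes. A lack of overlap in a gene chosen for its change is therefore common here. The 498 genes held 0.522 ± 0.011% of counts in the controls and 0.204 ± 0.018% after siARD1 (SD, n = 3 each). The fall was 4-fold or more in 46, and 107 had a mean of at least 5 CPM, 95 of them protein-coding. Of the siARD1 libraries, siARD1 3 was the nearest to the controls in 208 genes, siARD1 1 in 146 and siARD1 2 in 144. Members nearest the threshold on the inside were SLC16A3 (-1.004), ACSM3 (-1.004) and SERGEF (-1.01), and nearest on the outside were TMEM151A (-0.997), P4HA1 (-0.99) and COL2A1 (-0.99). SLC16A3, named after its value was seen, lost its call without control 1, 2 or 3 (edgeR adjusted p 0.0560 to 0.0721).

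Only 7 of the 498 had a mean of at least 100 CPM over the 6 libraries, and NDRG1, FABP1 and SLC16A3 among them are named after their values were seen. TXNIP, which encodes an arrestin-like protein that binds thioredoxin and limits glucose uptake, stood at 262, 249 and 255 CPM in the control libraries and 81.9, 78.5 and 73.7 CPM after siARD1. Its groups lay far apart and the libraries within each agreed closely (log2 fold change -1.71, SE 0.06, edgeR adjusted p = 1.46e-15). FABP1, the liver fatty acid-binding protein gene, stood at 376, 499.7 and 443 CPM in the control libraries and 189.6, 163 and 213 CPM after siARD1. Its control 1 was the lowest control and still above every siARD1 library (-1.22, SE 0.14, edgeR adjusted p = 5.57e-04). NDRG1, known as a gene induced by low oxygen, stood at 298, 335 and 302 CPM in the control libraries and 141, 127 and 192 CPM after siARD1. Here siARD1 3 was the highest of the siARD1 libraries, without reaching the controls (-1.02, SE 0.17, edgeR adjusted p = 0.00847). SLC16A3, the lactate exporter gene, had the same order, at 208, 232 and 222 CPM in the control libraries and 93.98, 92.3 and 144 CPM after siARD1. HP and PLG, also among the 7, encode plasma proteins.

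Among the largest falls with at least 5 CPM were genes of secreted signals. TFF2, which encodes a trefoil peptide of mucosal surfaces, stood at 10.8, 15.3 and 12.5 CPM in the control libraries and 2.01, 1.87 and 3.40 CPM after siARD1. The groups did not overlap, and siARD1 3 was again the highest of its group (-2.41, SE 0.19, edgeR adjusted p = 1.72e-08). LIF, a cytokine gene of the interleukin 6 family, stood at 17.1, 22.96 and 19.5 CPM in the control libraries and 3.51, 3.43 and 7.64 CPM after siARD1. Its siARD1 1 and 2 were nearly equal, and siARD1 3 lay between them and the controls (-2.04, SE 0.30, edgeR adjusted p = 0.00205). AMH, the anti-Müllerian hormone gene of the TGF-beta family, stood at 18.2, 17.4 and 16.8 CPM in the control libraries and 5.58, 5.92 and 3.82 CPM after siARD1, with siARD1 3 the lowest (-1.77, SE 0.13, edgeR adjusted p = 1.34e-09). EPO, the erythropoietin gene, known to be induced by low oxygen, stood at 10.7, 16.2 and 12.5 CPM in the control libraries and 2.38, 3.22 and 6.70 CPM after siARD1. Its siARD1 3 was the highest of its group and still below every control (-1.69, SE 0.38, edgeR adjusted p = 0.0166), and the call was lost without control 3 (edgeR adjusted p = 0.0579) or siARD1 2 (0.0716).

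Other large falls included genes of enzymes, matrix and membrane proteins. COL11A1, a fibrillar collagen gene, stood at 27.9, 26.1 and 24.3 CPM in the control libraries and 6.20, 6.23 and 6.86 CPM after siARD1, with tight groups (-2.02, SE 0.10, edgeR adjusted p = 2.77e-12). AGXT, which detoxifies glyoxylate in liver peroxisomes, stood at 38.6, 39.9 and 35.6 CPM in the control libraries and 11.1, 8.56 and 12.98 CPM after siARD1 (-1.81, SE 0.11, edgeR adjusted p = 2.21e-10). SLC6A4, the serotonin transporter gene, stood at 32.5, 35.2 and 31.8 CPM in the control libraries and 10.6, 8.36 and 11.3 CPM after siARD1 (-1.72, SE 0.10, edgeR adjusted p = 2.64e-11). In all 3 genes every siARD1 library was below every control. KREMEN1, which encodes a receptor for the Dickkopf inhibitors of WNT signalling, stood at 61.5, 58.7 and 54.9 CPM in the control libraries and 19.4, 17.6 and 19.99 CPM after siARD1 (-1.62, SE 0.08, edgeR adjusted p = 7.19e-13). ICAM5, an immunoglobulin-type adhesion gene, stood at 13.5, 12.8 and 10.52 CPM in the control libraries and 2.38, 2.60 and 3.04 CPM after siARD1 (-2.20, SE 0.16, edgeR adjusted p = 4.49e-10). Both genes showed small spread within each group. Log2 fold changes were -1.67 for LCT (lactase), -1.66 for GCNT1 (an O-glycan branching enzyme), -1.66 for PLIN5 (a lipid droplet coat protein), -1.55 for PIGZ (a GPI anchor mannosyltransferase), -1.56 for S100A9 (a calcium-binding protein of myeloid cells), -1.45 for PPP2R3A (a regulatory subunit of protein phosphatase 2A), -1.44 for RAB37 (a small GTPase of secretory vesicles), -1.40 for B3GNT7 (an N-acetylglucosamine transferase) and -1.56 for CCDC183. In each of these 9 genes the groups did not overlap, and the edgeR adjusted p was 2.34e-11 for RAB37, the smallest, and 0.00136 for PIGZ, the largest.

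**Figure D2:**
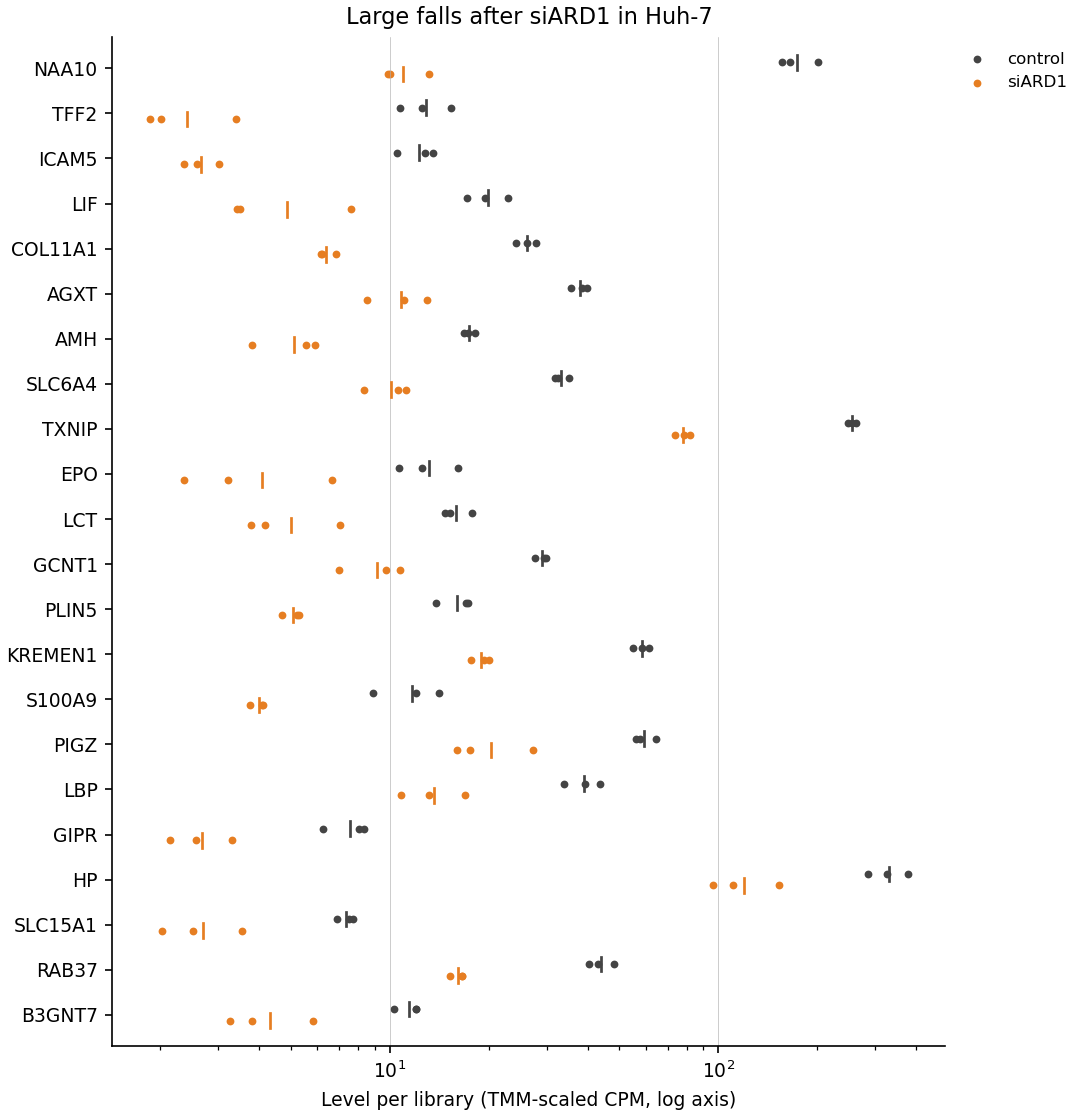
Level per library in TMM-scaled CPM on a log axis for 22 genes among the largest falls, with 3 control libraries (grey) and 3 siARD1 libraries (orange) per gene and a bar at each mean. No siARD1 point reaches a control point, and NAA10 shows the widest gap.

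Falls of 2-fold or more outside protein-coding genes included long non-coding RNAs. OLMALINC stood at 113, 96.3 and 98.04 CPM in the control libraries and 35.6, 34.7 and 31.1 CPM after siARD1, and its groups lay far apart (-1.60, SE 0.07, edgeR adjusted p = 4.15e-13). MIR210HG, the host transcript of the hypoxia-induced miR-210, stood at 12.1, 11.8 and 9.42 CPM in the control libraries and 2.43, 1.56 and 4.29 CPM after siARD1. Its siARD1 3 was the highest of the siARD1 libraries, as in LIF and EPO (-2.01, SE 0.26, edgeR adjusted p = 9.91e-05). AFDN-DT fell as well (-1.28). Among rises in this class were UCA1 at 14.8, 14.2 and 16.5 CPM in the control libraries and 37.4, 54.3 and 50.8 CPM after siARD1 (1.64, SE 0.13, edgeR adjusted p = 4.58e-07), LINC00857 (1.32), LINC00511 (1.31) and LINC02593 (1.20). No source read here gives the strand setting of the counting, so reads of antisense RNAs and their partner genes cannot be told apart. All GENCODE types other than protein-coding held 1.14 to 1.19% of counts in the controls and 0.995 to 1.07% after siARD1.

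Transcription factor genes changed at about the rate of all genes. Of 780 tested members of 9 family lists, 174 rose and 120 fell, and with upper-quartile scaling 136 rose and 164 fell, so the direction of the class rests on the scaling. Falls of 2-fold or more numbered 10 (1.28%, below the 3.13% of all genes), and 9 rose as much (1.15%, against 1.16%). The basic leucine zipper genes had the largest share of rises among the 9 families: 22 of 47 rose and 6 fell (median log2 fold change 0.28, against -0.01 over all genes), and 20 rose and 8 fell with upper-quartile scaling. ATF5, a stress-responsive member, stood at 5.75, 6.91 and 5.22 CPM in the control libraries and 19.2, 23.4 and 16.5 CPM after siARD1, and the groups did not overlap (1.72, SE 0.14, edgeR adjusted p = 5.51e-09). JUN, an AP-1 subunit, stood at 61.6, 56.02 and 58.7 CPM in the control libraries and 112, 102 and 98.01 CPM after siARD1, each siARD1 library above each control (0.82, SE 0.06, edgeR adjusted p = 1.27e-09). NFE2L2, which encodes NRF2, stood at 209, 199 and 207 CPM in the control libraries and 335, 343 and 298 CPM after siARD1, with siARD1 3 the lowest of its group (0.66, SE 0.06, edgeR adjusted p = 9.01e-09). DDIT3 (CHOP) rose by 0.95 and ATF3 by 1.02, both genes of the stress response.

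The liver factors also changed at about the rate of all genes. In that list 5 of 27 rose (18.5%, against 21.2% of all genes) and 5 fell (18.5%, against 18.9%). With upper-quartile scaling 9 fell. No member changed 2-fold, but only 1.16% of all genes rose and 3.13% fell that much. HNF4A, the nuclear receptor that drives many hepatocyte genes, stood at 337, 368 and 340.5 CPM in the control libraries and 364, 339 and 366 CPM after siARD1. Its groups overlapped (0.03, SE 0.05, edgeR adjusted p = 0.677). ONECUT1 also overlapped (-0.15, SE 0.08, edgeR adjusted p = 0.154), though it passed as lower without siARD1 3 (-0.21, edgeR adjusted p = 0.0423) and with upper-quartile scaling (-0.21, 0.0396). FOXA2, a pioneer factor of liver enhancers, fell from 132 ± 4.12 to 112 ± 5.79 CPM (-0.24, SE 0.05, edgeR adjusted p = 0.00142). PPARA, the fatty acid receptor that induces fat oxidation, had the largest change among the 10 members that passed and stood at 101, 92.4 and 91.6 CPM in the control libraries and 58.97, 55.2 and 63.4 CPM after siARD1 (-0.68, SE 0.06, edgeR adjusted p = 3.09e-08). NR1H4, the bile acid receptor FXR, rose from 117 ± 13.3 to 162 ± 12 CPM (0.47, SE 0.07, edgeR adjusted p = 1.11e-04), and so did NR0B2, the corepressor that FXR is known to induce (0.65, SE 0.11, edgeR adjusted p = 9.17e-05). TBX3 (0.49) and CEBPA (0.31) rose too. Over all nuclear receptors 5 of 38 rose and 10 fell, NR2F1 (-0.52) and PPARD (-0.42) among the latter.

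Other families held single large changes. In the KLF, SP and EGR list 5 of 19 rose and 4 fell (4 and 7 with upper-quartile scaling). KLF4, a zinc finger factor of epithelial differentiation, stood at 5.58, 4.68 and 4.91 CPM in the control libraries and 19.7, 19.7 and 14.97 CPM after siARD1, with no overlap (1.85, SE 0.13, edgeR adjusted p = 5.21e-10), and KLF2 rose by 0.68. KLF6 rose by 0.22 (edgeR adjusted p = 0.0189), a call lost without control 1 (adjusted p = 0.0971) or siARD1 3 (0.0848), with upper-quartile scaling (0.0871) and with both lines in 1 fit (0.0844). In the list of ETS, STAT, IRF, NF-kB, SMAD and TEAD genes 15 of 56 rose and 14 fell (14 and 17 with upper-quartile scaling). Both inhibitory SMAD genes were among the rises. SMAD6 stood at 99.2, 81.6 and 87.2 CPM in the control libraries and 249, 273 and 215 CPM after siARD1 and SMAD7 at 34.7, 35.01 and 36.3 CPM in the control libraries and 68.5, 59.3 and 59.2 CPM after siARD1. All siARD1 libraries were above all controls in both (1.46, SE 0.09, edgeR adjusted p = 2.48e-07 and 0.82). Basic helix-loop-helix genes rose in 15 of 49 and fell in 15, with the inhibitors of differentiation ID1 (0.84) and ID3 (0.60) higher and the lipogenic activator SREBF1 (-0.56) and MXD3 (-0.93) lower. In this list 1 gene passed 2-fold each way, both named after their values were seen. MYC rose from a mean of 34.5 to 103 CPM (1.59), and HIF3A fell from 1.85 to 0.849 CPM (-1.10). In the SOX, FOX and homeobox list 9 of 83 rose and 20 fell, among the latter PBX3 (-0.62) and SATB1 (-0.57). In the list of cell cycle factors, which holds the E2F, MYB and RB genes among others, 8 of 19 rose and 3 fell, with E2F4 (0.32) higher and RBL2 lower (-0.49). Numbered zinc finger (ZNF) genes rose in 92 of 451 and fell in 46, but in 68 and 69 with upper-quartile scaling.

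Genes of secreted proteins fell more often than they rose. Of 387 tested members of 12 lists, 150 fell (38.8%, against 18.9% of all genes) and 60 rose (15.5%, against 21.2%), with a median log2 fold change of -0.19 against -0.01 over all genes. The count of falls was 132 to 156 with each library left out in turn. At 2-fold or more both directions lay above the shares of all genes, with 28 falls (7.24%, against 3.13%) and 21 rises (5.43%, against 1.16%). Plasma proteins stood out in number. In the complement list 17 of 28 fell and 1 rose (median -0.52), in the serpin list 12 of 22 fell and 3 rose (median -0.28), and among other plasma proteins 27 of 52 fell and 1 rose (median -0.25).

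HP, the haptoglobin gene, stood at 286, 376 and 327 CPM in the control libraries and 111, 96.4 and 153 CPM after siARD1, with siARD1 3 the highest of its group (-1.46, SE 0.22, edgeR adjusted p = 0.00737). PLG, the plasminogen gene, stood at 151, 159.9 and 145 CPM in the control libraries and 62.5, 53.8 and 66.6 CPM after siARD1, and the groups lay far apart (-1.32, SE 0.07, edgeR adjusted p = 8.90e-12). APOC3, an apolipoprotein gene that slows triglyceride clearance, stood at 57.96, 60.7 and 62.9 CPM in the control libraries and 28.9, 26.5 and 32.8 CPM after siARD1 (-1.04, SE 0.08, edgeR adjusted p = 7.43e-10). LBP, a member of none of these lists but among the largest falls, encodes the lipopolysaccharide-binding protein and stood at 33.8, 43.6 and 39.3 CPM in the control libraries and 10.8, 13.1 and 16.9 CPM after siARD1 (-1.52, SE 0.14, edgeR adjusted p = 4.69e-06). In these 4 genes no siARD1 library reached a control. Among complement genes C3, at 1676, 1664 and 1739 CPM in the control libraries and 1148, 1329 and 1311 CPM after siARD1, fell by 0.42 on the log2 scale, C8A by 0.59 and C1RL by 0.53, and CFB, named after its value was seen, by 0.75. The single member that rose was C1S, a protease of the first complement component, at 40.4, 43.6 and 41.5 CPM in the control libraries and 57.6, 66.1 and 61.1 CPM after siARD1 (0.56, SE 0.07, edgeR adjusted p = 1.10e-06). Among serpins SERPINA4 (-0.90), SERPINF2 (-0.75) and SERPINA1 (-0.53) fell, while the protease inhibitor SERPINE2 rose from 56.4 ± 0.554 to 117 ± 4.67 CPM (1.05, SE 0.06, edgeR adjusted p = 5.12e-12) and SERPINH1, a collagen chaperone of the endoplasmic reticulum, by 0.58.

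Collagen genes fell in 16 of 23 tested members, the largest share among the 12 secreted lists (69.6%, median log2 fold change -0.65). COL1A2 and COL1A1, at control means of 25.5 and 0.758 CPM, are also markers of fibroblasts, whose summed level was lower after siARD1 as given above. All libraries are labelled as the Huh-7 line, and no label names another cell type. Whether other cells had a part in this result was not tested. In bulk RNA fewer cells of a type and less RNA per cell cannot be told apart. COL2A1, a cartilage collagen gene and the most counted member, stood at 1316, 1444 and 1387 CPM in the control libraries and 801, 577 and 709.5 CPM after siARD1. The siARD1 libraries spread more than the controls, without overlap (-0.99, SE 0.10, edgeR adjusted p = 3.62e-05). COL18A1, the basement membrane collagen that holds endostatin, stood at 287, 272 and 273 CPM in the control libraries and 173, 161 and 184 CPM after siARD1 (-0.68, SE 0.06, edgeR adjusted p = 3.92e-09). COL9A2 (-0.98) and COL6A1 (-0.95) fell by about as much as COL2A1. COL12A1 was the single member that rose (0.65, SE 0.10, edgeR adjusted p = 3.51e-05) and is named after its value was seen. Other matrix genes divided, with 21 of 60 lower and 11 higher. SPP1, the osteopontin gene, stood at 37.2, 34.2 and 31.1 CPM in the control libraries and 116, 132 and 125 CPM after siARD1, with no overlap (1.87, SE 0.07, edgeR adjusted p = 2.06e-14). THBS1, an adhesive glycoprotein that activates latent TGF-beta, stood at 13.2, 14.7 and 14.7 CPM in the control libraries and 51.9, 66.4 and 58.3 CPM after siARD1 (2.04, SE 0.09, edgeR adjusted p = 3.29e-13), LOXL4, a collagen cross-linking oxidase, rose by 1.62 and TGFBI by 0.89.

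Signalling proteins changed in both directions. Of 36 cytokine and chemokine genes 12 rose and 4 fell (median 0.16). CXCL8, the interleukin 8 gene, stood at 8.85, 10.1 and 9.77 CPM in the control libraries and 40.4, 53.9 and 58.7 CPM after siARD1. Every siARD1 library stood far above every control (2.40, SE 0.13, edgeR adjusted p = 6.49e-09). CSF1, the macrophage growth factor gene, stood at 48.2, 45.2 and 44 CPM in the control libraries and 90.8, 106 and 91.9 CPM after siARD1 (1.08, SE 0.07, edgeR adjusted p = 8.38e-11), and IL32 (0.80) and CX3CL1 (0.66) rose too. In the TGF-beta family list 14 of 32 fell and 10 rose. BMP2 stood at 43.9, 41.6 and 43.1 CPM in the control libraries and 68.5, 76.4 and 80.4 CPM after siARD1 (0.81, SE 0.07, edgeR adjusted p = 5.77e-09), and INHBE, a liver activin subunit gene, rose from 29.9 ± 1.04 to 63.6 ± 6.48 CPM (1.09, SE 0.08, edgeR adjusted p = 3.67e-10), as did LTBP1 (1.08). Growth factor genes fell in 11 of 45 and rose in 7, with the matricellular genes CCN1 (1.44) and CCN2 and the EGF receptor ligand AREG (1.61) higher and MST1 lower (-0.69). WNT ligands and inhibitors fell in 5 of 12 and rose in 1, DKK1, at 96.6, 111 and 109 CPM in the control libraries and 137, 154 and 165 CPM after siARD1 (0.53, SE 0.07, edgeR adjusted p = 4.10e-06). DKK3 (-0.64) and WNT5B (-0.997) fell, and WNT9B did (-0.68, edgeR adjusted p = 0.0143) except without control 2 (adjusted p = 0.0533) or control 3 (0.0731). Peptide hormone genes fell in 9 of 28 and rose in 4. NPPB, the B-type natriuretic peptide gene, stood at 1.18, 0.591 and 1.10 CPM in the control libraries and 9.60, 12.3 and 11.7 CPM after siARD1 and rose from about 1 CPM (3.56, SE 0.21, edgeR adjusted p = 1.93e-11), while AGT, the angiotensin precursor gene of liver, fell from 1791 ± 75.4 to 1214 ± 107 CPM (-0.56, SE 0.06, edgeR adjusted p = 3.60e-07) and TFF1 fell by 1.42 on the log2 scale. Secreted proteases and inhibitors fell in 15 of 46 and rose in 7, with MMP11 (-0.50) and ADAMTS13 (-0.75) lower and CPN2 (0.41) higher. Of 7 IGFBP genes IGFBP3 stood at 7.16, 8.09 and 7.49 CPM in the control libraries and 14.8, 17.7 and 14.7 CPM after siARD1 (1.05, SE 0.12, edgeR adjusted p = 3.25e-07). IGFBP1 passed at an edgeR adjusted p of 0.0356 (0.38), and lost its call without control 2, control 3 or siARD1 1 and under 3 other settings (adjusted p 0.0643 to 0.555), and IGFBP2 (-0.53) lost its call without control 2 (0.0501) or siARD1 2 (0.0621).

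**Figure D3:**
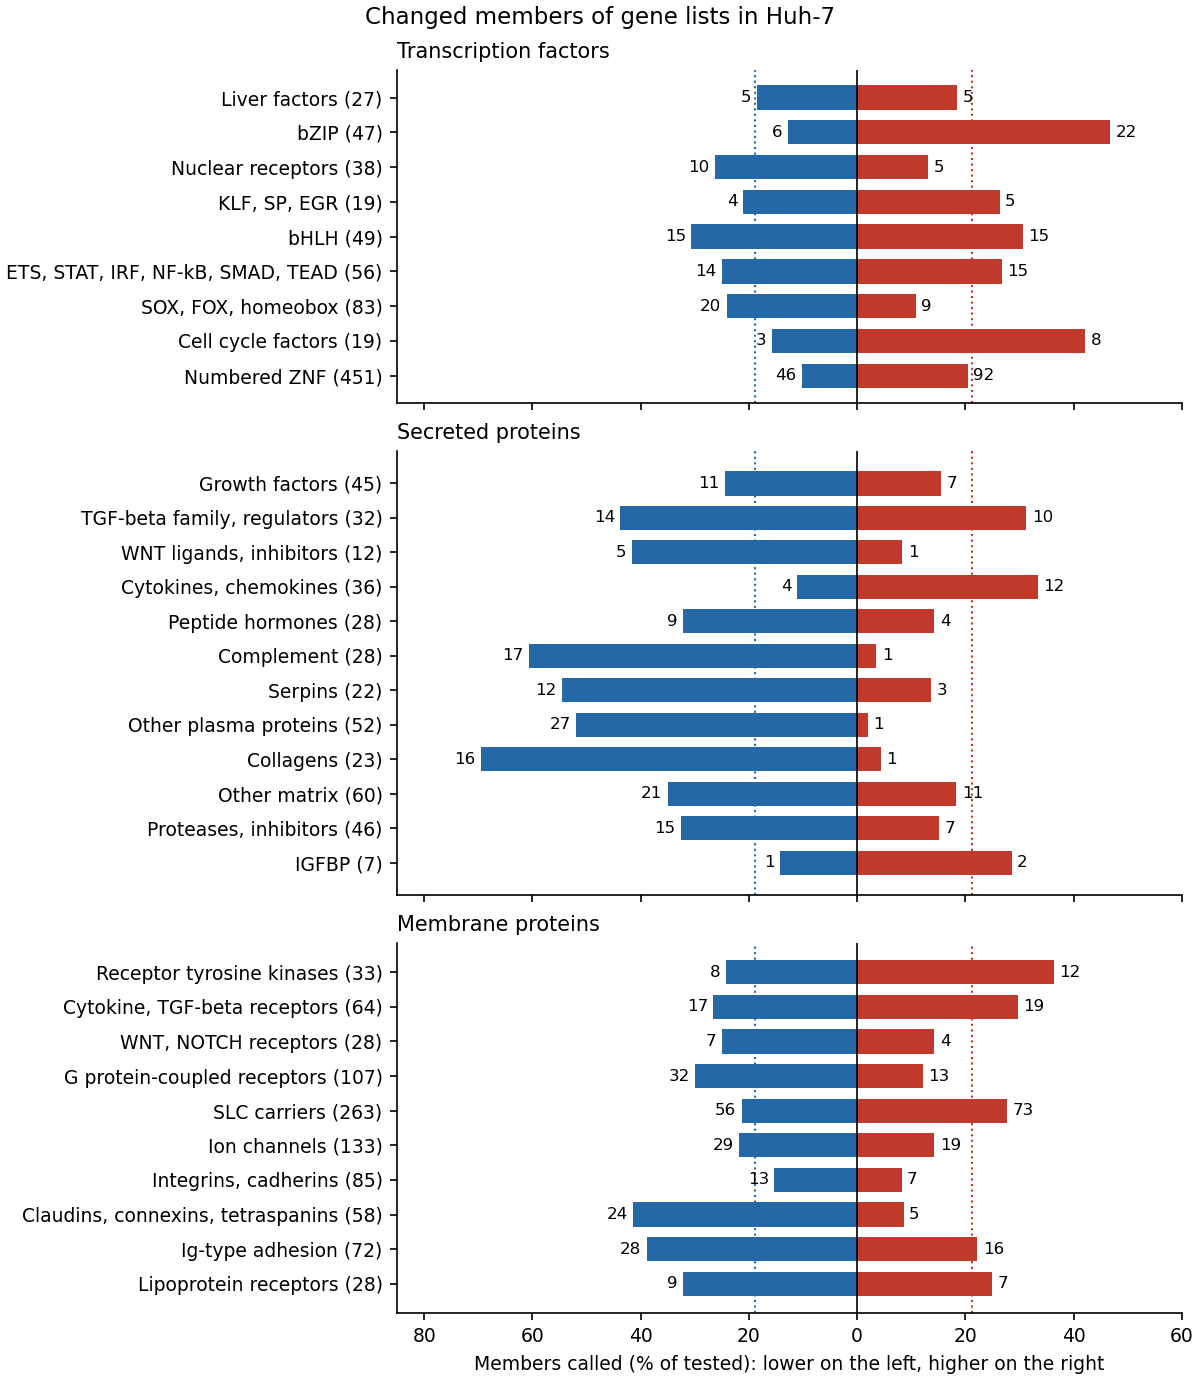
Share of tested members lower (blue, left) and higher (red, right) after siARD1 in each gene list, with the number called beside each bar, the number tested in brackets and dotted lines at the shares of all tested genes (18.9% lower, 21.2% higher). Collagens, complement, serpins and other plasma proteins lean to the left and basic leucine zipper genes to the right. With upper-quartile scaling falls came to outnumber rises among the KLF, SP and EGR, the ETS to TEAD, the tyrosine kinase, the cytokine and TGF-beta receptor and the SLC lists, and just so (69 to 68) among ZNF genes. In the liver and basic helix-loop-helix lists, where both counts were equal, falls outnumbered rises with that scaling.

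Membrane protein genes moved both ways, with 223 of 871 lower (25.6%, against 18.9% of all genes) and 175 higher (20.1%, close to the 21.2% of all genes) over 10 lists. Falls of 2-fold or more numbered 41 (4.71%, against 3.13% of all genes) and rises 21 (2.41%, against 1.16%). Of 107 G protein-coupled receptor genes 32 fell (29.9%) and 13 rose (12.1%), with a median log2 fold change of -0.21. These are genes of low level, with a median of 4.63 CPM in the controls. Of all genes at 1 to 10 CPM in the controls, 20.9% fell and 9.54% rose (median -0.17). GIPR, the receptor of a gut hormone that raises insulin release, stood at 8.34, 8.05 and 6.27 CPM in the control libraries and 2.58, 3.32 and 2.15 CPM after siARD1 (-1.49, SE 0.18, edgeR adjusted p = 1.29e-06). F2RL2, a protease-activated receptor gene, moved the other way and stood at 0.846, 1.41 and 1.45 CPM in the control libraries and 9.24, 8.30 and 6.38 CPM after siARD1 (2.66, SE 0.21, edgeR adjusted p = 2.91e-09). Both genes had no overlap between groups. S1PR3 (0.56) and SSTR2 (0.77), receptors of a lysolipid and of somatostatin, rose as well. Ion channel genes, with a median of 4.82 CPM in the controls, fell in 29 of 133 (21.8%) and rose in 19 (14.3%). The share of falls is near that of all genes at this level. KCNH2, a cardiac potassium channel gene, stood at 8.23, 6.23 and 6.49 CPM in the control libraries and 1.60, 1.04 and 1.73 CPM after siARD1 (-2.25, SE 0.21, edgeR adjusted p = 2.58e-08), while the mechanically gated channel gene PIEZO1 rose from 102 ± 7.25 to 158 ± 10.49 CPM (0.64, SE 0.06, edgeR adjusted p = 4.34e-08) and the volume-regulated channel gene LRRC8A by 0.51.

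Carriers of the SLC families rose in 73 of 263 and fell in 56, and in 59 and 76 with upper-quartile scaling. SLC7A5, the large neutral amino acid carrier, stood at 86.7, 62.5 and 70.4 CPM in the control libraries and 305, 299 and 225 CPM after siARD1, and SLC3A2, its heavy chain partner, at 156, 138 and 148 CPM in the control libraries and 383, 363 and 297 CPM after siARD1. In both genes siARD1 3 was the lowest siARD1 library and the groups did not overlap (1.92, SE 0.19, edgeR adjusted p = 0.00116 and 1.24, SE 0.08, edgeR adjusted p = 1.70e-07). SLC29A3, a lysosomal nucleoside carrier gene, stood at 28.8, 28.3 and 27.9 CPM in the control libraries and 64.8, 64.7 and 62.4 CPM after siARD1 (1.18, SE 0.07, edgeR adjusted p = 1.08e-11). SLC25A27 (-1.27), a mitochondrial carrier gene, and SLC15A1 (-1.45), the peptide carrier of the gut, fell.

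Receptors for growth signals were divided. Receptor tyrosine kinase genes rose in 12 of 33 and fell in 8, and in 6 and 10 with upper-quartile scaling. EGFR stood at 228, 231 and 235 CPM in the control libraries and 271, 275 and 268 CPM after siARD1, a small shift with tight groups (0.23, SE 0.05, edgeR adjusted p = 7.86e-04). EPHA2 rose by 0.93, and PDGFRA, also a fibroblast marker, fell by 0.85 on the log2 scale. The 12 rises include IGF2R, the IGF2 scavenging receptor (0.45), which was counted in this list but is not a kinase. Cytokine and TGF-beta receptor genes rose in 19 of 64 and fell in 17 (14 and 18 with upper-quartile scaling). BAMBI, a decoy receptor of TGF-beta signalling, stood at 87.1, 88.7 and 93.5 CPM in the control libraries and 214, 217 and 194 CPM after siARD1, with no overlap (1.21, SE 0.06, edgeR adjusted p = 6.98e-13), and TNFRSF12A (0.89), TNFRSF11B (1.004) and LTBR (0.57) rose. WNT and NOTCH receptor genes fell in 7 of 28 and rose in 4. Besides KREMEN1, NOTCH3 fell from 64.2 ± 3.97 to 34.5 ± 1.53 CPM (-0.90, SE 0.07, edgeR adjusted p = 1.67e-09), while the NOTCH ligand gene JAG1 rose from 167 ± 6.13 to 289.7 ± 12.3 CPM (0.80, SE 0.05, edgeR adjusted p = 1.96e-10) and FZD4 by 0.83. In the lipoprotein and scavenger receptor list 9 of 28 fell and 7 rose, TFR2 (-0.97), a sensor of transferrin iron, and LRP2 (-0.69) among the former.

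Junction and immunoglobulin-type adhesion genes fell in a larger share than all genes (18.9%), and integrin and cadherin genes did not. In the list of claudins, connexins, tetraspanins and tight junction genes 24 of 58 fell (41.4%) and 5 rose (median -0.27), TJP3 (-0.83), F11R (-0.61) and TSPAN9 (-0.46) among the falls. CLDN1 moved against its list, at 239.7, 242 and 257 CPM in the control libraries and 377, 417 and 434 CPM after siARD1 (0.73, SE 0.06, edgeR adjusted p = 2.26e-09). Integrin and cadherin genes fell in 13 of 85 (15.3%) and rose in 7 (8.24%), both shares below those of all genes. Their median was 4.20 CPM in the controls. Of all genes at 1 to 10 CPM there, 20.9% fell and 9.54% rose, so the share of rises is near that of this level. CDH1, the E-cadherin gene, stood at 144, 148 and 146 CPM in the control libraries and 84.7, 89.1 and 103 CPM after siARD1, with siARD1 3 the highest of its group (-0.66, SE 0.06, edgeR adjusted p = 3.15e-08), and CDH17 fell by 0.61 and PCDH1 by 1.35 on the log2 scale. Immunoglobulin-type and related adhesion genes fell in 28 of 72 (38.9%) and rose in 16. SEMA4G fell (-0.78), and ICAM1, a leukocyte adhesion receptor gene, rose from 169.7 ± 12.2 to 278 ± 17.7 CPM (0.71, SE 0.06, edgeR adjusted p = 7.21e-09), as did PROM1 (0.86).

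The genes with promoters shown above belong to lists that rose in most members. Of 23 YAP target genes 14 rose (60.9%, against 21.2% of all genes) and 2 fell (8.70%, against 18.9%), with a median of 0.36. ANKRD1, a nuclear ankyrin-repeat gene used as a readout of YAP, stood at 2.54, 3.09 and 4.08 CPM in the control libraries and 29.4, 36.8 and 37.8 CPM after siARD1. The lowest siARD1 library exceeded the highest control several times over (3.40, SE 0.14, edgeR adjusted p = 9.69e-13). CCN2 stood at 36.03, 34.7 and 35.98 CPM in the control libraries and 94.4, 110.3 and 92.3 CPM after siARD1, with tight controls (1.48, SE 0.07, edgeR adjusted p = 7.19e-13), and AMOTL2, which restrains YAP, at 28.1, 31.5 and 29.1 CPM in the control libraries and 73.1, 72.3 and 75.04 CPM after siARD1 (1.31, SE 0.07, edgeR adjusted p = 2.05e-12). AJUBA (0.92) and MYOF (1.94) rose too. The members that fell, GGH (-0.34) and NT5E (-0.30), are named after their values were seen.

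All 7 tested metallothionein genes, which encode small zinc- and copper-binding proteins, rose (median 1.53), where 21.2% of all genes did. MT2A stood at 64.7, 77.4 and 83.7 CPM in the control libraries and 182, 181 and 217 CPM after siARD1, MT1X at 4.12, 3.55 and 3.94 CPM in the control libraries and 13.99, 19 and 16.1 CPM after siARD1 and MT1E at 18.04, 25.2 and 24.2 CPM in the control libraries and 73.01, 60.4 and 75.8 CPM after siARD1. The groups did not overlap in these 3 genes, with log2 fold changes of 1.36, 2.08 and 1.62 (SE 0.10 to 0.14). The copies of this family are nearly identical, so the split of reads among them is uncertain. With both lines in 1 fit, 3 of the 7 kept a call.

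Targets of ATF4 rose in 25 of 33 (75.8%, against 21.2% of all genes). In this list 1 fell, ERO1A (-0.42, named after its value was seen). GDF15, a stress hormone gene, stood at 58.5, 54.7 and 53.9 CPM in the control libraries and 238, 242 and 177 CPM after siARD1, and CHAC1, which degrades glutathione, at 13.1, 9.82 and 11.5 CPM in the control libraries and 37.5, 32.9 and 21.9 CPM after siARD1. Both had siARD1 3 as the lowest of the siARD1 libraries (1.98, SE 0.12, edgeR adjusted p = 6.93e-06 and 1.43, SE 0.21, edgeR adjusted p = 0.00150). NUPR1 (1.76), PPP1R15A (0.93) and WARS1 (0.82) rose too. NRF2 targets rose in 21 of 30 (70%, against the same 21.2%). Among them 1 fell, GCLC (-0.54, named after its value was seen), the catalytic subunit of glutamate-cysteine ligase. AKR1C2 stood at 97.2, 96.99 and 93.1 CPM in the control libraries and 453, 507 and 469 CPM after siARD1, the gene with the largest log2 change above 100 CPM (2.31, SE 0.06, edgeR adjusted p = 9.10e-18). OSGIN1 stood at 15.7, 12.6 and 14.1 CPM in the control libraries and 65.1, 70.2 and 52.9 CPM after siARD1 (2.16, SE 0.11, edgeR adjusted p = 1.47e-10), TXNRD1 at 433, 404 and 436 CPM in the control libraries and 805, 822 and 751 CPM after siARD1 (0.90, SE 0.06, edgeR adjusted p = 5.18e-11), and UGDH rose by 0.89. The groups did not overlap in these genes. AKR1B10, an aldo-keto reductase gene, went from 9 counts over the 3 controls to 887 over the siARD1 libraries, at 14.3 to 16.4 CPM after siARD1. Its fitted log2 fold change of 6.67 rests on those 9 counts, and the aldo-keto reductase genes have near-identical relatives. In the list of metabolic targets of liver factors, in contrast, 16 of 49 fell (32.7%, against 18.9% of all genes) and 6 rose (12.2%). AGXT, BHMT (-1.31) and PKLR (-1.04) were among the falls, as were the gluconeogenic genes PCK1 (-1.91) and G6PC1 (-1.79), named after their values were seen. ALDH1A1 rose from 909 ± 42.4 to 1402 ± 89.2 CPM (0.62, SE 0.06, edgeR adjusted p = 3.34e-08).

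**Figure D4:**
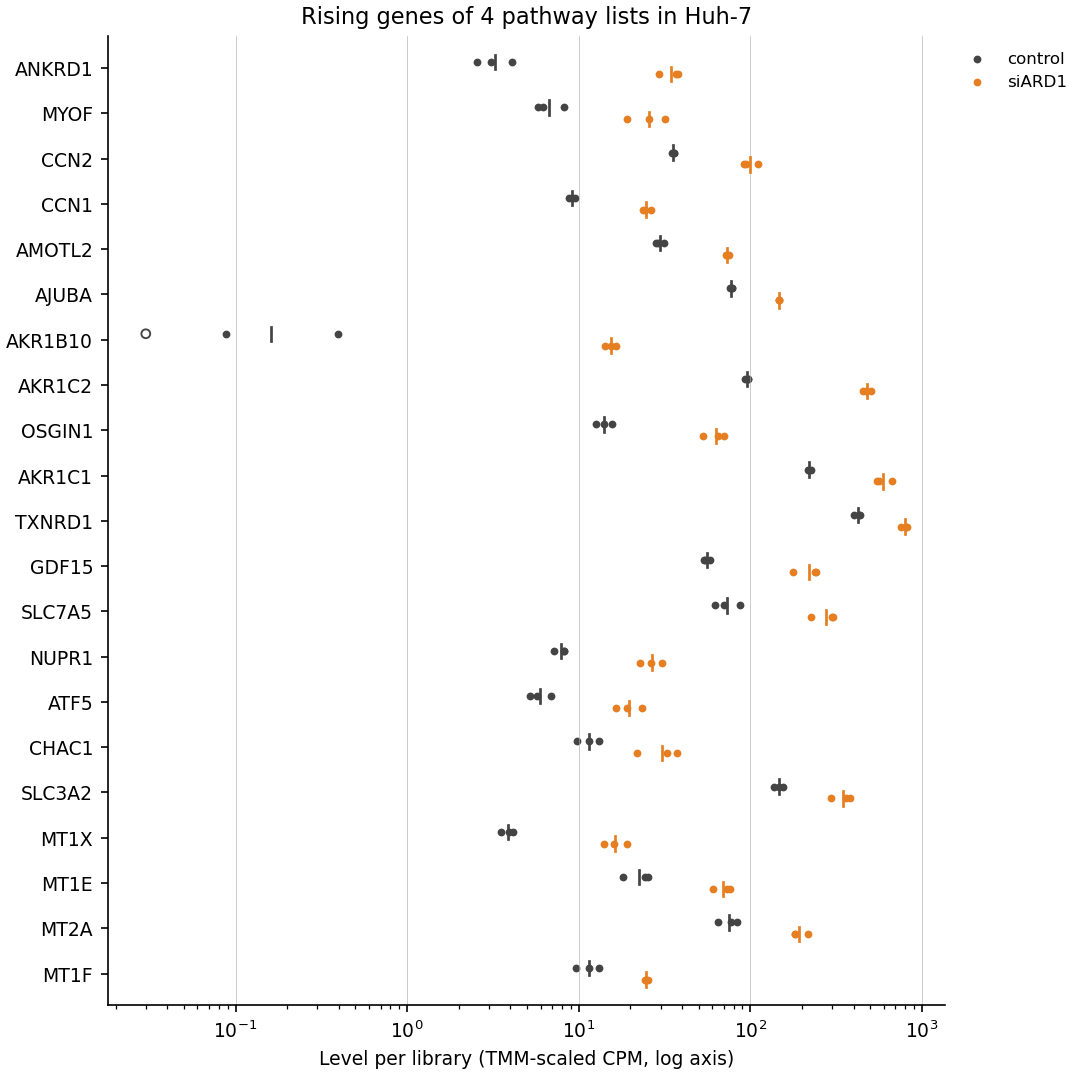
Level per library in TMM-scaled CPM on a log axis for 21 genes of the YAP, NRF2, ATF4 and metallothionein lists, with 3 control libraries (grey), 3 siARD1 libraries (orange) and a bar at each mean. The open circle marks a control library with 0 counts of AKR1B10, drawn at an arbitrary place on the axis. All siARD1 points lie above the control points of their gene.

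Of the other large rises, ANXA1, an annexin gene, stood at 1.13, 1.41 and 1.40 CPM in the control libraries and 9.91, 11.2 and 9.73 CPM after siARD1 (2.95, SE 0.17, edgeR adjusted p = 2.53e-11), RASD1, a Ras-like GTPase gene, at 6.31, 5.87 and 5.08 CPM in the control libraries and 26.4, 32.4 and 20.98 CPM after siARD1 (2.21, SE 0.15, edgeR adjusted p = 1.12e-08), and TAGLN, an actin-binding gene of smooth muscle, at 2.59, 2.32 and 1.67 CPM in the control libraries and 6.04, 12.4 and 8.53 CPM after siARD1 (2.05, SE 0.26, edgeR adjusted p = 3.10e-05). In each, all siARD1 libraries were above all controls. The keratin KRT18, the partner of KRT8, rose from 314 ± 9.18 to 645 ± 57.5 CPM (1.04, SE 0.06, edgeR adjusted p = 2.34e-11), while alpha-fetoprotein (AFP), a hepatoma marker, fell from 5101 ± 214 to 3469.7 ± 277 CPM (-0.56, SE 0.06, edgeR adjusted p = 4.00e-07).

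The response was set against the 6 libraries labelled Hep-3B. Hep-3B is known to make alpha-fetoprotein and albumin, yet AFP there stood at 0.26 to 1.97 CPM and ALB at 0.564 to 6.20 CPM, against 3182 to 5281 and 10689 to 12771 CPM in the Huh-7 libraries, so they are named here by their label. The difference of the siARD1 effects was tested in a single edgeR fit of the 4 groups, in which 5380 of 17122 genes (31.4%) passed. Of 11 genes reported, which were chosen with earlier results of these data known, 7 passed. NAA10 fell further in Huh-7 than in the libraries labelled Hep-3B (-3.98 and -2.01), a difference of -2.0 (SE 0.22, edgeR adjusted p = 1.56e-05), so the depth of knockdown differs as well. ANKRD1 (difference 2.71), THBS1 (1.78), CCN2 (0.97) and ATF3 (0.81) rose more in Huh-7. HNF4A (-0.02), ONECUT1 (-0.06) and EGFR (-0.06) did not pass, with SEs of 0.09, 0.17 and 0.10. Nor did NR1H4 (4.09, SE 1.65), which was at a mean of 0.0628 CPM in the labelled Hep-3B controls and 0 after siARD1. Of the 498 genes at least 2-fold lower in Huh-7, 305 were tested in the libraries labelled Hep-3B. There 63 (20.7%) were lower and 24 (7.87%) higher, against 15.3% and 16.8% of all 15762 genes tested.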

How the data were processed

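Per the labels' protocols, Trizol was used to extract RNA, rRNA was removed and a directional kit made the libraries. Per the submitters' processing notes, cutadapt 4.6, STAR 2.7.11b and GRCh38 were used. The deposited tables hold raw counts per Ensembl gene, 1 table per line, and no source read here names the authors' counting tool, gene annotation or strand option. The Huh-7 table has 25714 rows, of which 23662 were found in GENCODE v29, used for positions, types and exon lengths. No column of values was left without a sample.

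Genes passing filterByExpr (minimum count 10, minimum total 15) were tested with edgeR 4.0.16 in R 4.3.3: TMM factors, robust quasi-likelihood F-test on the 6 Huh-7 libraries alone, and Benjamini-Hochberg adjustment over all 15919 tested genes. A gene is called changed at an adjusted p under 0.05. SE was taken as the log2 fold change divided by the square root of F, without sign, an approximation that is poor at low counts. The 95% interval of the NAA10 level uses it with a z of 1.96. The difference between lines is the interaction in a fit of all 12 libraries. Library totals are given in the report. Chi-square over gene counts between replicates of a group ran from 2.42 to 6.40 per gene, so no library appears to be deposited again.

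The comparison, its members, the 36 gene lists and 5 marker lists were chosen with earlier results of these data known, and no list was tested as a set. Families were taken by symbol or from textbook membership. Genes named are NAA10 and 10 genes fixed for the comparison of lines, the 25 largest protein-coding falls and 15 largest rises of at least 2-fold with a mean of at least 5 CPM, up to 4 changed members per list by p with a mean of at least 1 CPM, the 3 largest changes per band of level, the 5 largest falls and rises of other gene types, and genes whose promoters are shown. Some genes this rule names are not reported here. Names outside it are marked, apart from SLC3A2 and TXNRD1, which were named as promoter genes though their promoters are not shown.

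Same-numbered control and siARD1 libraries did not deviate together (correlations 0.052, -0.065 and 0.0075), so numbers were not taken as pairs. Tried as alternatives were DESeq2 1.42.0, voom in limma 3.58.1, RLE or upper-quartile factors, all rows kept, at least 1 CPM in 3 libraries, a false discovery rate of 0.01, a test against a 1.5-fold change, a replicate block, both lines in 1 fit, other bins of level and each library left out in turn. On simulated Huh-7 counts for 15919 genes the fit recovered 38, 84, 98 and 98% of genes changed by 0.3, 0.5, 1 and 2 on the log2 scale, with 8 false calls. The simulation gave every gene the same fixed spread and changed 50 genes per size, none of them among those with the fewest counts. In the data many more genes changed and most 2-fold falls were at low level. These rates therefore do not carry over to the calls reported here.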

Additional observations from a re-analysis of the deposited data

Results flagged for a closer look

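The siARD1 effect differed between Huh-7 and the libraries labelled Hep-3B in 7 of 11 genes chosen for this comparison and reported here. The measure is the interaction term of the edgeR fit, which 31.4% of all genes tested passed. The 11 genes were chosen with earlier results of these data known, so their share does not test whether such genes differ more often. Values are the log2 fold change in Huh-7 minus that in the labelled Hep-3B libraries. NAA10 differed by -2.0 (adjusted p = 1.56e-05), with 11 CPM left in Huh-7 and 13.6 CPM in the other libraries from controls of 174 and 55.3 CPM. ANKRD1 differed by 2.71 (adjusted p = 0.00606), where the labelled Hep-3B libraries held means of only 0.298 and 0.416 CPM. THBS1 differed by 1.78, CCN2 by 0.97 and ATF3 by 0.81, higher in Huh-7. FOXA2 differed by -0.39, with -0.24 and 0.14. KLF6 differed by -0.36 (adjusted p = 0.0283), which was lost without control 2, control 3, siARD1 1 or siARD1 2 of Huh-7 (adjusted p 0.0599 to 0.0870).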

How the results depend on the processing

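Over the alternatives run, the numbers of genes higher (2475 to 3490), lower (2035 to 3887) and at least 2-fold higher (131 to 262) stayed within 1.5 times the reported counts. The number of genes at least 2-fold lower ran from 367 (at least 1 CPM in 3 libraries) to 633 (no filter) and was 214 when tested against a 1.5-fold change, which asks more of each gene. The difference in median log2 fold change between genes under 10 CPM and others was -0.22, and -0.19 with bins on control CPM and -0.12 with bins of CPM per kilobase of exon. With the replicate number as a block, 3353 genes were higher, 2975 lower and 498 at least 2-fold lower, and the single call of a named gene that it changed was NR1H4, which passed in the difference between lines (3.87, adjusted p = 0.0420). Among genes whose groups overlapped, the sign turned for HNF4A (-0.032) with upper-quartile factors. With each library left out in turn ARHGAP4 ran from -0.52 to 0.059 (without control 2). Differences between lines that did not pass turned for HNF4A with RLE factors (0.0012), and with libraries left out they ran from -0.053 to 0.021 for HNF4A (above 0 without control 2 or siARD1 2) and from -0.13 to 0.032 for ONECUT1 (above 0 without siARD1 2). NR1H4 also passed there without control 1 (adjusted p = 0.0451) or control 2 (0.0393). Of 2938 recomputed values of 211 named genes, 2910 kept direction and call. AREG lost its call with both lines in 1 fit (adjusted p = 0.0997), and ORM2, the single other plasma gene that rose and named after its value was seen, under 4 settings (0.0702 to 0.149). The causes were not tested. Of 1008 list counts, 972 stayed within 1.5 times. With 3 libraries per group, changes of 0.3 on the log2 scale were often missed in the simulation, which changed no genes with the fewest counts. Low-level genes rest on few counts.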
